A study of Mus musculus with 16 samples.

Results

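*Ebag9* (ENSMUSG00000022339.10) encodes EBAG9, also called RCAS1, and was followed as a single gene through ribosome footprints and total RNA of lung tumour cells of a control line and of a line made by CRISPR against *Eif4a2*. It was found by its symbol and was 1 of the 20622 genes in the total RNA tables and 1 of the 15235 genes in the footprint tables. The study stained RCAS1 as a marker of the cis-Golgi and reported a larger Golgi area in the edited line. That is an area and not an amount of the protein. The gene lies on chromosome 15.

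EBAG9 is a small membrane-anchored protein of the Golgi, first found through an oestrogen receptor binding fragment of its gene. It is known to restrain regulated exocytosis, through contacts with the SNARE-associated protein Snapin, with gamma2-adaptin and with the BLOC-1 complex, and to act on COPI-dependent transport between the endoplasmic reticulum (ER) and the Golgi. The RNA helicase eIF4A2 takes part in translation initiation and, with the CCR4-NOT complex, in the repression of translation.

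KM cells were grown from lung tumours of 1 male mouse with Rosa26LSL-MYC/LSL-MYC alleles, taken at clinical endpoint after Cre under the surfactant protein C promoter had been given to the lung. Both lines therefore carry added MYC, and both carry Cas9 and were selected with puromycin. KM4A2cr is a pool of 4 clones that the study selected as negative for eIF4A2 protein, made with a guide against *Eif4a2*, and KMNTC received a guide without a target, so the comparison is of 2 lines from 1 tumour-bearing animal. Untreated cells of both lines were lysed in 4 independent experiments on different days, and each lysate gave a library of ribosome-protected fragments (RPFs, the stretches of mRNA covered by ribosomes) and a library of cytoplasmic total RNA, 16 libraries in all.

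RPF libraries held 5703271 to 9621848 counts in KMNTC and 4512403 to 8515151 in KM4A2cr, and total RNA libraries 5580726 to 9312622 and 5350919 to 7213596, with replicate 4 the lowest in each set. *Eif4a2* itself was lower in the RPFs of KM4A2cr, with a log2 fold change of -0.49 (edgeR, standard error 0.15, adjusted p = 0.0941), while in total RNA it was -0.18 (edgeR, adjusted p = 0.504). The KM4A2cr to KMNTC ratio of its RPFs was 0.522, 0.724, 0.749 and 0.889 in replicates 1 to 4, and that of its total RNA was 0.830, 0.861, 0.952 and 0.892, so its reads remained in the edited line and the RPF ratio was nearest to 1 in replicate 4. Replicate 4 stood apart from replicates 1 to 3 in 2 further ways. In its KMNTC and KM4A2cr RPFs *Eif4a2* was at 388.7 and 345.7 CPM, as counts scaled by library totals and TMM factors, against at most 122 on that scale in the RPFs of replicates 1 to 3. *Cd68*, a lysosomal gene of macrophages that tumour cells can also express, was at 649 and 572 CPM by library totals alone against 89.7 to 122 on that scale. The other leukocyte markers were scarce, with *Ptprc* at no more than 2.34 CPM in any library and *Cd3e* at 0 counts in all 8 total RNA libraries. All 5 epithelial markers were abundant, summing to 8268 to 8803 CPM in the RPFs of KMNTC and 9131 to 9853 in those of KM4A2cr. Alveolar type 2 markers were mostly missing, as *Sftpc* and *Sftpb* had 0 counts in the total RNA libraries and only *Abca3* was plentiful, at 90.1 to 157 CPM. Some of these markers were higher in KM4A2cr, with *Abca3* at a log2 fold change of 0.54 in RPFs and 0.62 in total RNA (edgeR, adjusted p = 0.05005 and 0.0240). *Epcam* was at 0.51 and *Cdh1* at 0.44 in RPFs (edgeR, adjusted p = 0.0770 and 0.0845). In total RNA they were at 0.65 and 0.45 (edgeR, adjusted p = 0.101 and 0.220). *Krt19*, *Krt18* and *Krt8* were at 0.13, -0.10 and -0.05 in RPFs (edgeR, adjusted p = 0.575, 0.668 and 0.847). At an adjusted p under 0.1, 6.60% of all genes were higher in RPFs and 4.35% in total RNA. The part of these markers in the results for *Ebag9* was not tested.

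*Ebag9* footprints were more frequent in KM4A2cr in 3 of the 4 replicates and less frequent in the fourth. The counts in replicates 1 to 4 were 231, 133, 119 and 117 in KMNTC and 345, 165, 277 and 70 in KM4A2cr. After normalisation by the trimmed mean of M-values (TMM), which evens out library composition, these were 20.9, 13.2, 16.3 and 24.5 CPM in KMNTC and 41.7, 20.3, 38.9 and 18.8 CPM in KM4A2cr. Replicates 1 and 3 of KM4A2cr lay above every KMNTC library, and replicates 2 and 4 lay inside the KMNTC range, so the groups overlapped. The means were 18.7 ± 5.00 CPM (SD, n = 4) in KMNTC and 29.9 ± 12.0 CPM (SD, n = 4) in KM4A2cr.

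**Figure D1:**
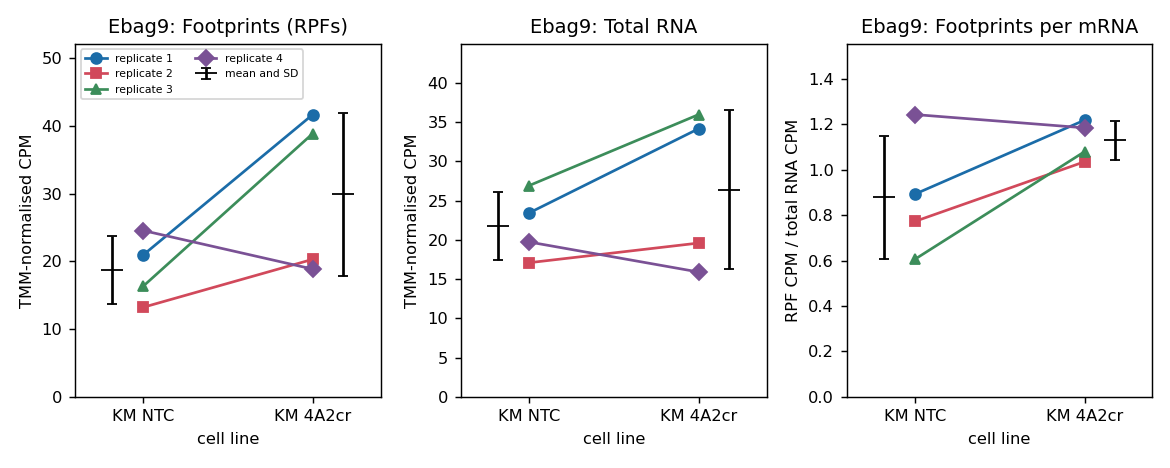
Ebag9 in each lysate, with RPF CPM on the left, total RNA CPM in the middle and the ratio of RPF CPM to total RNA CPM on the right. Lines join the libraries of 1 replicate and black bars give the mean and SD over 4 replicates. Replicates 1 to 3 rise from KM NTC to KM 4A2cr in all 3 panels and replicate 4 falls.

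The fitted RPF log2 fold change of *Ebag9* was 0.67 (edgeR quasi-likelihood test with the replicate as a block, standard error 0.24, 95% interval 0.14 to 1.20). This is a 1.59-fold difference, and after adjustment over 10291 genes it did not pass the threshold of 0.1 (edgeR, adjusted p = 0.134). Of all genes tested in RPFs, 10.3% passed, and the *Ebag9* fold change was above that of 95.4% of them. A 2-sided exact sign-flip test on its 4 pairs alone gave p = 0.25, where 0.125 is the smallest p that 4 pairs allow. An exact permutation test that ignored the pairs gave p = 0.2, with a smallest possible p of 0.0286. Since cells were measured in bulk, more cells with *Ebag9* footprints and more footprints per cell cannot be told apart.

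The RPF call turned on replicate 4 and on the filter. With all replicates and no filter on low counts *Ebag9* passed, at 0.66 (edgeR, adjusted p = 0.0822). Leaving out replicate 4 put the RPF log2 fold change at 0.96 (edgeR, adjusted p = 0.000554), whereas leaving out replicate 1, 2 or 3 gave 0.54, 0.68 and 0.49 (edgeR, adjusted p = 0.387, 0.378 and 0.487). Of all genes, 3469 of 10376 passed without replicate 4, so the pass is not particular to *Ebag9*. Without replicate 1, 2 or 3, 232, 123 and 32 passed. Depth, *Eif4a2* and *Cd68* all differ in that replicate, as given above, and their part in the result was not tested.

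Total RNA of *Ebag9* moved in the same direction as the footprints in every replicate, by less in each. Its counts, summed over isoforms, were 167, 190, 199 and 103 in replicates 1 to 4 of KMNTC and 209, 154, 190 and 69 in KM4A2cr. As TMM-normalised CPM these were 23.4, 17.1, 26.9 and 19.7 in KMNTC and 34.2, 19.6, 36.0 and 15.9 in KM4A2cr. Again replicates 1 and 3 of KM4A2cr were above all KMNTC libraries, while replicate 4 was below them all. The means were 21.8 ± 4.29 and 26.4 ± 10.1 CPM (SD, n = 4 each).

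The total RNA log2 fold change was 0.24 (edgeR, standard error 0.16, 95% interval -0.11 to 0.59, adjusted p = 0.463 over 10880 genes), where 6.13% of all genes passed. The exact sign-flip test gave p = 0.375 and the exact permutation test p = 0.543. Without replicate 4 the value was 0.38 (edgeR, adjusted p = 0.0300), and without replicate 1, 2 or 3 it was 0.13, 0.25 and 0.17 and did not pass. Of all genes, 3260 of 10941 passed without replicate 4, and 207, 140 and 63 without replicate 1, 2 or 3. With library size as the only scaling it was 0.09 (edgeR, adjusted p = 0.765), a scaling under which the median of all genes moved from 0.01 to -0.15.

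The pairs were also set against their counting error. The KM4A2cr to KMNTC ratio of RPF CPM was 1.99 in replicate 1 (95% counting interval 1.68 to 2.36), 1.54 in replicate 2 (1.22 to 1.95), 2.38 in replicate 3 (1.92 to 2.98) and 0.768 in replicate 4 (0.563 to 1.04). The intervals of replicates 1 to 3 lay above 1, and that of replicate 4 reached across it and overlapped none of the others. In total RNA the ratio was 1.46 (1.185 to 1.80), 1.15 (0.921 to 1.43), 1.34 (1.09 to 1.64) and 0.806 (0.585 to 1.10) in replicates 1 to 4. Here the intervals of replicates 1 and 3 lay above 1, and that of replicate 4 overlapped those of replicates 2 and 3. These intervals cover counting error only, not the spread between cultures. Set against all genes of the same pair, the RPF difference of *Ebag9* was above that of 96.2%, 89.4%, 98.4% and 26.5% of genes in pairs 1 to 4, and the total RNA difference above that of 84.9%, 69.7%, 82.7% and 27.6%.

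**Figure D2:**
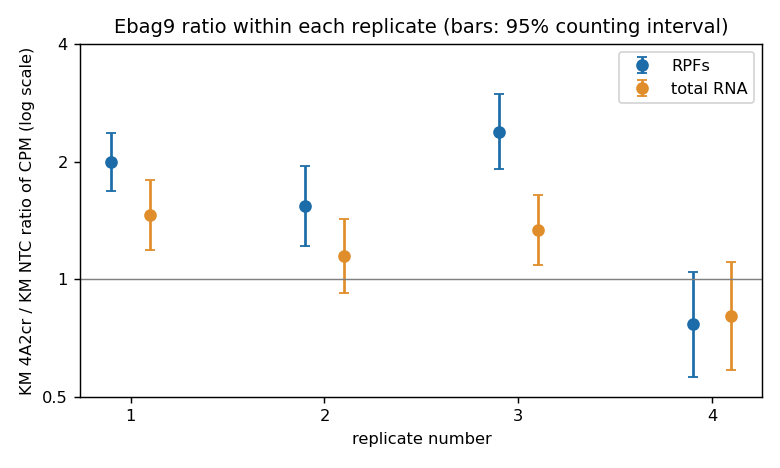
Ratio of Ebag9 CPM in KM 4A2cr to that in KM NTC, on a log scale, for each replicate, in RPFs (blue) and total RNA (orange). Bars are 95% intervals from the counts alone, and only replicate 4 has both ratios below 1, at 0.768 and 0.806.

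Footprints per mRNA, the ratio of RPF CPM to total RNA CPM of the same lysate, were less spread in KM4A2cr than in KMNTC, though that difference in spread was not tested. In KMNTC the ratio of *Ebag9* was 0.893, 0.773, 0.606 and 1.24 in replicates 1 to 4, and in KM4A2cr it was 1.22, 1.04, 1.08 and 1.19. All KM4A2cr lysates thus lay above KMNTC replicates 1 to 3 and below KMNTC replicate 4. The means were 0.879 ± 0.270 and 1.13 ± 0.0863 (SD, n = 4 each), and the ratio within pairs was 1.37, 1.34, 1.78 and 0.953.

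In 1 edgeR model over the 16 libraries, the interaction of line and kind of library put *Ebag9* at a log2 difference of 0.46 in footprints per mRNA (standard error 0.15, 95% interval 0.16 to 0.77). It ranked 373 of 9989 genes by p and did not pass after adjustment (edgeR, adjusted p = 0.125), where 2.91% of all genes passed. The exact sign-flip test gave p = 0.25 and the exact permutation test p = 0.143. Without replicate 4 the difference was 0.58 (edgeR, adjusted p = 0.0235), and without replicate 1, 2 or 3 it was 0.46, 0.47 and 0.35 and did not pass. Of all genes, 673 of 10072 passed without replicate 4, and 10, 41 and 15 without replicate 1, 2 or 3. Keeping genes of any count level in the fit lowered the adjusted p to 0.0554 (edgeR), with a difference of 0.47. Footprints and mRNA of *Ebag9* therefore did not move in opposite directions in any pair, and their fold changes differed in size without passing the threshold.

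**Figure D3:**
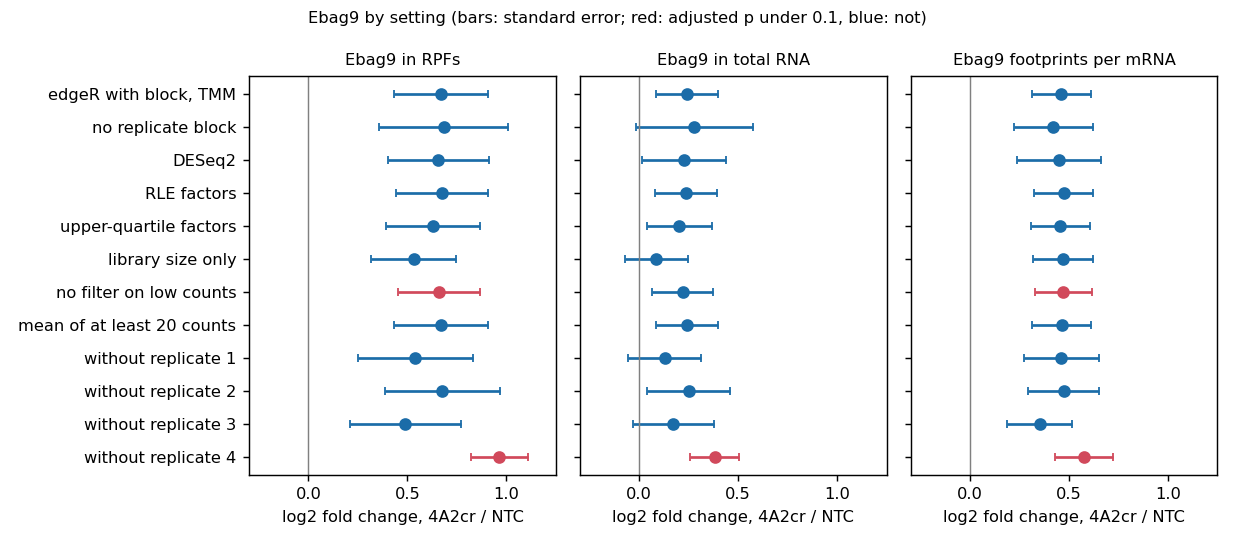
Log2 fold change of Ebag9 between KM 4A2cr and KM NTC, with standard error bars, under each setting named on the left, for RPFs, total RNA and footprints per mRNA. Red points have an adjusted p under 0.1; leaving out replicate 4 gives red points in all 3 panels, at 0.96, 0.38 and 0.58, and no setting drawn here gives a value below 0.

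The level of *Ebag9* was that of an ordinary gene of these cells. In TPM, the length-corrected unit that the authors deposited, its 3 isoforms summed to 25.3, 21.7, 28.5 and 17.3 in replicates 1 to 4 of KMNTC and 35.0, 22.9, 35.2 and 10.3 in KM4A2cr. Its mean TPM was above that of 55.8% of the genes tested in total RNA in KMNTC and 60.8% in KM4A2cr. Its mean RPF CPM was above that of 45.0% of genes in KMNTC and of 57.0% in KM4A2cr, a scale that is not corrected for length. Its footprints per mRNA stood above those of 52.1%, 45.5%, 35.4% and 67.5% of genes in KMNTC replicates 1 to 4, and above those of 69.2%, 58.8%, 62.6% and 67.96% in KM4A2cr.

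The 3 annotated isoforms of *Ebag9* in the files took nearly equal shares of its total RNA reads. ENSMUST00000022964.9, of 1613 nucleotides, held 412 of the reads summed over 8 libraries, ENSMUST00000226165.2, of 1931 nucleotides, held 428, and ENSMUST00000227691.2, of 1945 nucleotides, held 441. These are 32.2%, 33.4% and 34.4% of the reads of the gene. The shortest had the highest mean TPM, 9.02 against 7.66 and 7.85, and it was the one on which the footprints were counted. In KMNTC the mean shares were 33.5 ± 1.81%, 32.9 ± 1.93% and 33.6 ± 1.96% in that order, and in KM4A2cr they were 30.6 ± 1.97%, 32.4 ± 4.74% and 37.0 ± 5.07% (SD, n = 4 each). Only 27 to 58 of the 38315 isoform values in a library differed at all from a whole number. How reads that fit several isoforms were shared out cannot be read from these values, so the isoform values are uncertain.

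**Figure D4:**
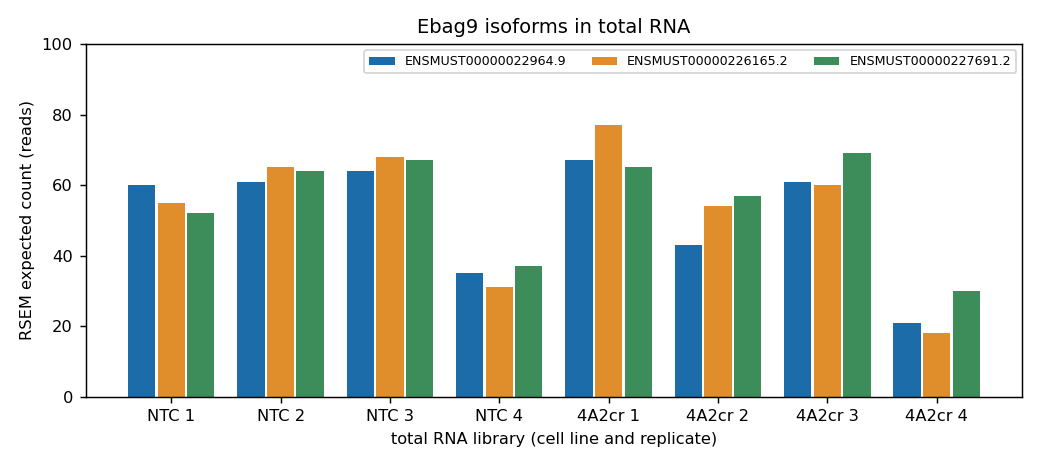
RSEM expected counts of the 3 Ebag9 isoforms (colours) in each of the 8 total RNA libraries. The isoforms stay close to one another within a library, and replicate 4 of both lines has the fewest reads.

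None of the isoforms passed the threshold, which 4.64% of 19596 isoforms did (3.30% upward). The log2 fold change was 0.13 (edgeR, standard error 0.19, adjusted p = 0.787) for ENSMUST00000022964.9, 0.26 (edgeR, standard error 0.20, adjusted p = 0.566) for ENSMUST00000226165.2 and 0.36 (edgeR, standard error 0.17, adjusted p = 0.332) for ENSMUST00000227691.2. Their 95% intervals, -0.28 to 0.55, -0.17 to 0.69 and -0.02 to 0.74, overlapped. Without replicate 4 the longer isoforms passed, at 0.42 (edgeR, adjusted p = 0.0814) for ENSMUST00000226165.2 and 0.46 (edgeR, adjusted p = 0.0455) for ENSMUST00000227691.2. The share of all isoforms that passed under that setting was not counted. Of genes in total RNA, 3260 of 10941 passed under it. With total RNA taken from ENSMUST00000022964.9 only, the isoform of the RPF table, footprints per mRNA differed by 0.60 (edgeR, adjusted p = 0.112).

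The genes whose pattern was most like that of *Ebag9* were *Uxs1*, *Fam171a1*, *Tm2d2*, *Spcs3* and *Slc35b3*. Likeness was Pearson's r over the 16 libraries, on log2 CPM centred within each kind of library, and these values were 0.963, 0.9505, 0.945, 0.935 and 0.930. The points share lysates and replicate numbers, so r here describes the libraries. Among the 9988 other genes 38 had an r above 0.9. *Uxs1* makes UDP-xylose for proteoglycan synthesis, *Spcs3* is a subunit of the signal peptidase of the ER, and *Slc35b3* carries the sulphate donor PAPS into the Golgi. In RPFs *Uxs1* rose by a log2 fold change of 0.57 (edgeR, adjusted p = 0.0991) and *Slc35b3* by 0.59 (edgeR, adjusted p = 0.0642). These are the ones past the threshold, beside 6.60% of all genes that were higher. The genes were picked for likeness to *Ebag9* over these same libraries. Higher values in pairs 1 to 3 than in pair 4 therefore follow from the choice, and the share of all genes is no yardstick for their calls. *Spcs3* was at 0.60, *Tm2d2* at 0.49 and *Fam171a1* at 0.42, with adjusted p-values of 0.106, 0.1502 and 0.229 by edgeR. In pair 4 the RPF log2 difference was -0.05 for *Uxs1*, -0.35 for *Fam171a1*, -0.22 for *Tm2d2*, -0.18 for *Spcs3* and 0.10 for *Slc35b3*, against 0.42 to 1.01 over pairs 1 to 3 of these genes.

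Most tested genes beside *Ebag9* on chromosome 15 had log2 fold changes below 0 in RPFs and in total RNA, but none was lower past the threshold. The median of all genes tested was -0.01 in RPFs and 0.01 in total RNA. The 5 tested genes on either side were, in order, *Oxr1*, *Eif3e*, *Emc2*, *Nudcd1* and *Eny2*, then *Sybu*, *Eif3h*, *Utp23*, *Rad21* and *Med30*. Their median RPF log2 fold change was -0.06, with 3 of the 10 above 0, and their median in total RNA was -0.08, again with 3 above 0. In footprints per mRNA the median was 0.01, with 6 above 0. *Oxr1*, an oxidation resistance gene, was the only one of the 10 past the threshold, beside 10.3% of all genes in RPFs and 2.91% in footprints per mRNA. It rose in RPFs by 0.47 (edgeR, adjusted p = 0.0650) and in footprints per mRNA by 0.50 (edgeR, adjusted p = 0.0369), with total RNA at -0.02 (edgeR, adjusted p = 0.968). *Eny2*, the nearest tested gene on 1 side, was at -0.005 in RPFs, and *Sybu*, the nearest tested on the other side, at -0.30 (edgeR, adjusted p = 0.989 and 0.639). The median over 386 genes of the chromosome was -0.01 in RPFs and 0.02 in total RNA.

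**Figure D5:**
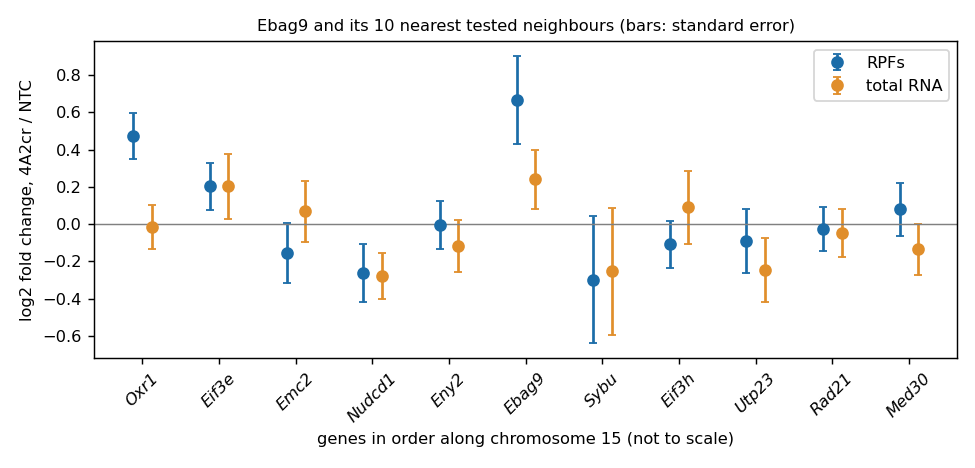
Log2 fold change with standard error of Ebag9 and of the 5 tested genes on either side of it, in order along chromosome 15, in RPFs (blue) and total RNA (orange). Ebag9 has the highest RPF value, 0.67, and Oxr1 the next, 0.47.

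The partners of EBAG9 and the exocytosis machinery showed no common direction. Of 36 listed genes 32 were tested in RPFs, where 2 rose and 1 fell, beside 6.60% and 3.72% of all genes, shares close to those of the list. The median RPF log2 fold change was -0.01, beside -0.01 for all genes. *Stx4a*, a plasma membrane SNARE, rose by 0.64 and *Vamp3*, a vesicle SNARE, by 0.50, while *Snap23*, which pairs with syntaxins at the plasma membrane, fell by 0.46 (edgeR, adjusted p = 0.0758, 0.0803 and 0.0986). *Snapin* itself was at 0.00 in RPFs (edgeR, adjusted p = 0.991), and *Ap1g2*, which encodes gamma2-adaptin, was at -0.33 in RPFs and -0.53 in total RNA (edgeR, adjusted p = 0.250 and 0.151). In total RNA 0 of 33 members passed by edgeR, 6 with an unadjusted p under 0.05, where 6.13% of all genes passed. By DESeq2 0 passed there, beside 589 of 10880 genes. In footprints per mRNA 2 of 32 rose and 1 fell, beside 1.87% and 1.04% of all genes. Those that rose were *Stx4a* at 0.68 and *Dtnbp1*, a BLOC-1 subunit, at 0.65, and *Stxbp2*, a regulator of syntaxin, fell by 0.49 (edgeR, adjusted p = 0.0846, 0.0914 and 0.0363). With DESeq2, 0 of the RPF members passed and 6 had an unadjusted p of less than 0.05, beside 958 of 10291 genes that passed. Leaving out replicate 1, 2 or 3 left 0 calls in edgeR for RPFs, where 232, 123 and 32 of all genes passed. In footprints per mRNA it also left 0 calls, where 10, 41 and 15 of all genes passed. Leaving out replicate 4 gave 4 higher and 7 lower of 31 tested in RPFs, beside 1982 and 1487 of 10376 genes. In footprints per mRNA it gave 2 higher and 1 lower, beside 413 and 260 of 10072 genes.

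The COPI list covers the coat that carries cargo from the Golgi back to the ER, its Arf regulators and its cargo receptors. Of 24 members tested, 4 rose and 1 fell in RPFs, beside 6.60% and 3.72% of all genes. The median was 0.08, beside -0.01 for all genes. In total RNA 5 rose, against 4.35% of all genes, and the median was 0.17, beside 0.01 for all genes. The members that rose are KDEL receptors, which return ER proteins, and p24 proteins, which serve as cargo adaptors. *Kdelr3* rose by 1.08 in RPFs and 0.98 in total RNA (edgeR, adjusted p = 0.00453 and 0.0104). *Tmed2* at 0.62, *Tmed10* at 0.52 and *Kdelr2* at 0.44 rose in RPFs, and *Arfgap2*, which acts on Arf1, fell by 0.53 (edgeR, adjusted p = 0.0287, 0.0682, 0.0770 and 0.0784). *Tmed10*, *Kdelr2* and *Tmed3* rose in total RNA by 0.57, 0.54 and 0.57 (edgeR, adjusted p = 0.0730, 0.0730 and 0.0770), and *Kdelr1*, also past the threshold, by 0.54 (edgeR, adjusted p = 0.0842). The coat subunit *Copa* was at -0.19 in RPFs and 0.10 in total RNA and *Copb1* at 0.06 and -0.03, values picked as examples after they were seen, and neither passed. In footprints per mRNA 0 of 24 passed by edgeR, 4 with an unadjusted p under 0.05, and 0 by DESeq2, which gave 6 of them no adjusted p. Of all genes, 2.91% passed there by edgeR and 136 of 9989 by DESeq2. Of the 24, 5 were above 0 and the median was -0.10, beside -0.02 for all genes. Leaving out replicate 1, 2 or 3 left 1 call each in RPFs and at most 1 in total RNA. Over all genes 232, 123 and 32 passed in RPFs under these settings, and 207, 140 and 63 in total RNA. Leaving out replicate 4 gave 7 higher and 5 lower in RPFs, beside 1982 and 1487 of 10376 genes.

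The median of the list of Golgi structure genes and resident enzymes lay above that of all genes in all 3 readouts. Of 37 members, all tested, 31 had an RPF log2 fold change above 0, with a median of 0.17 beside -0.01 for all genes. Of these members 8 rose and 1 fell, against 6.60% higher and 3.72% lower of all genes. *Man1a*, a Golgi mannosidase, rose by 0.98, *Golga4*, a golgin of the trans-Golgi, by 0.76, *Tmf1*, another golgin, by 0.57 and *B4galt1*, a galactosyltransferase, by 0.61 (edgeR, adjusted p = 0.0166, 0.0253, 0.0389 and 0.0544). The member that fell was *Blzf1*, which encodes golgin-45, by 0.43 (edgeR, adjusted p = 0.0856). In total RNA only *Man1a* passed, at 0.85 (edgeR, adjusted p = 0.0554), beside 4.35% of all genes that were higher. There 28 of the 37 were above 0, with a median of 0.08 beside 0.01 for all genes. In footprints per mRNA 29 were above 0, with a median of 0.08 beside -0.02 for all genes. In that readout 6 rose, against 1.87% of all genes, led by *Tmf1* at 0.52, *Golga5* at 0.48, *Rab2a* at 0.35 and *Golga1* at 0.42 (edgeR, adjusted p = 0.0139, 0.0366, 0.0893 and 0.0964). Leaving out replicate 1, 2 or 3 left at most 1 call in RPFs, where 232, 123 and 32 of all genes passed. Leaving out replicate 4 gave 16 higher and 1 lower in RPFs, beside 1982 and 1487 of 10376 genes. In total RNA it gave 12 higher, beside 1951 of 10941 genes. There 22 of the 37 were above 0, with a median of 0.02 beside -0.02 for all genes. With library size as the only scaling the median of the list was 0.04 in RPFs and -0.07 in total RNA, beside -0.14 and -0.15 for all genes.

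All 4 TM9SF genes, membrane proteins of the ER, Golgi and endosomes, had RPF and total RNA log2 fold changes above 0. The medians were 0.37 in RPFs, 0.39 in total RNA and -0.01 in footprints per mRNA, beside -0.01, 0.01 and -0.02 for all genes. *Tm9sf3* rose in RPFs by 0.74 (edgeR, adjusted p = 0.0285), beside 6.60% of all genes that were higher. *Tm9sf1* was at 0.46 in RPFs and 0.50 in total RNA (edgeR, adjusted p = 0.214 and 0.1255). In total RNA 0 of 4 passed by edgeR, 2 with an unadjusted p under 0.05, where 6.13% of all genes passed. By DESeq2 1 passed there, beside 589 of 10880 genes. In footprints per mRNA 0 passed by either tool, 1 with an unadjusted p under 0.05 by edgeR. By edgeR 2.91% of all genes passed in that readout. Without replicate 4, 3 passed in RPFs and 4 in total RNA, beside 3469 of 10376 and 3260 of 10941 genes. Without replicate 1, 2 or 3 none passed by edgeR. Over all genes 232, 123 and 32 passed in RPFs under these settings, and 207, 140 and 63 in total RNA.

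Among oestrogen receptors, related receptors, coactivators and target genes, 6 of 12 had enough RPF counts to be tested and 3 rose, beside 6.60% of all genes. These were *Tff1*, an oestrogen-induced secreted peptide, by 1.38, the coactivator *Ncoa1* by 0.51 and the orphan receptor *Esrra* by 0.68 (edgeR, adjusted p = 0.0258, 0.0772 and 0.0877). *Esr1*, the oestrogen receptor alpha gene, was at 0.15 (edgeR, adjusted p = 0.772). The coactivators *Ncoa3* and *Ncoa2* were at -0.43 and -0.04, and neither passed (edgeR, adjusted p = 0.138 and 0.919). In total RNA 0 of 5 passed by edgeR, 1 with an unadjusted p under 0.05, and 0 by DESeq2. Of all genes, 6.13% passed there by edgeR and 589 of 10880 by DESeq2. *Tff1* was not among these 5. By DESeq2 1 of the 6 rose in RPFs, beside 671 of 10291 genes. Without replicate 1, 2 or 3 none did by edgeR, where 232, 123 and 32 of all genes passed.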

How the data were processed

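RPFs and cytoplasmic total RNA were sequenced from 8 lysates of KM cells. The RPF values deposited are counts, 1 transcript per gene (the most abundant), of fragments inside the coding sequence away from both ends, after trimming (cutadapt), removal of ribosomal and transfer RNA and UMI collapsing (UMI-tools 1.0.1). The total RNA values deposited by the authors are expected counts and TPM per isoform (Bowtie2 2.3.5.1, RSEM 1.3.3, on GENCODE). Here expected counts were summed per gene and rounded. Genes were filtered with filterByExpr, scaled by TMM within each kind of library and tested with edgeR 4.0.16 (R 4.3.3), with line and replicate as terms, Benjamini-Hochberg adjustment over all genes and a threshold of 0.1. Footprints per mRNA were tested as an interaction with a term for each lysate. The block was taken from the study's batch-corrected view of the replicates. Deviations of same-numbered libraries from their group means correlated at 0.575 to 0.782 in every pair. Libraries of different numbers were not compared, so these values cannot show that equal numbers mark pairs. A prior count of 2 was used for log2 CPM. Symbols came from a name table and gene order from RefSeq (GRCm38.p6). The files use a different annotation, and coordinates are left out. Alternatives used DESeq2 1.42.0, limma 3.58.1, other scalings and filters. The gene and the lists were chosen with earlier results of these data known. Named genes were *Ebag9* and its isoforms, *Eif4a2*, the 5 genes most like *Ebag9*, 5 tested neighbours on either side, and at most 4 called genes per list and readout by p. Further list members (*Snapin*, *Ap1g2*, *Copa*, *Copb1*, *Kdelr1*, *Blzf1*, *Tm9sf1*, *Esr1*, *Ncoa3*, *Ncoa2*) were named after their values were seen. A further allele shared by both lines is not reported here.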

Additional observations from a re-analysis of the deposited data

Results flagged for a closer look

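Only *Eif4a2* gave values far from the rest of their group, among the groups of 4 libraries checked for *Ebag9* and *Eif4a2*, and chance alone marks about 1 in 20 groups of this size. Replicate 4 of KMNTC stood at 388.7 RPF CPM, replicate 4 of KM4A2cr at 345.7 RPF CPM, and replicate 4 of KMNTC at 523.7 total RNA CPM. No *Ebag9* library stood out by this measure.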

How the results depend on the processing

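The log2 fold changes of *Ebag9* and its isoforms stayed above 0 under every alternative run. Without the filter on low counts *Ebag9* passed in RPFs, at 0.66 (edgeR, adjusted p = 0.0822), and in footprints per mRNA, at 0.47 (edgeR, adjusted p = 0.0554). Leaving out 1 replicate at a time gave 0.49 to 0.96 in RPFs, 0.13 to 0.38 in total RNA and 0.35 to 0.58 in footprints per mRNA, and 0.035 to 0.27, 0.084 to 0.42 and 0.30 to 0.46 for ENSMUST00000022964.9, ENSMUST00000226165.2 and ENSMUST00000227691.2. The highest came without replicate 4 each time, and the cause was not tested. Without the replicate block *Ebag9* was at 0.68, 0.28 and 0.42 (edgeR, adjusted p = 0.998, 0.999 and 0.957), and 0 genes passed in any readout, in any list, against 365, 362 and 498 with an unadjusted p under 0.05. DESeq2 gave 0.65, 0.23 and 0.45, with no adjusted p for the last. Over all genes 1062, 667 and 291 passed with edgeR and the block, 32 to 3469, 63 to 3260 and 10 to 673 with 1 replicate left out, 1619, 1130 and 132 with library size only, 1268 and 475 in total RNA and footprints per mRNA without the filter, 136 in footprints per mRNA by DESeq2 and 0 by limma, with 1145 at an unadjusted p under 0.05. Called members with 1 replicate left out numbered 0 to 11, 0 to 8 and 0 to 3 (partners), 1 to 12 and 0 to 8 (COPI), 0 to 17, 0 to 12 and 0 to 9 (Golgi), 0 to 3 and 0 to 4 (TM9SF), and 0 to 4 and 0 to 1 (oestrogen). With library size only, 5 partners, 1 COPI member in total RNA and 2 Golgi members in footprints per mRNA passed. By DESeq2, chosen for the lists after seeing the data, 0 partners passed in RPFs and 1 in footprints per mRNA, 2 Golgi members in total RNA and 3 in footprints per mRNA, 1 TM9SF gene in total RNA and 1 oestrogen gene in RPFs. Of all genes, 958, 589 and 136 passed by DESeq2 in RPFs, total RNA and footprints per mRNA. In footprints per mRNA DESeq2 gave no adjusted p for 22 of 32 partners and 7 of 37 Golgi members. *Ebag9* had 69 to 345 counts in a library, which limits precision within a pair.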
